A study of Citrus sinensis with 6 samples.

Results

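The 6 probe sets described here carry the names of gibberellin (GA) genes from 3 steps of the pathway: inactivation of the hormone, its receptor and the proteins that respond to it. They were 6 of the 30171 citrus probe sets of the Affymetrix Citrus GeneChip, a 1-colour oligonucleotide array, and were picked from the genes that the study called differentially expressed on these same arrays. Their values and changes are therefore given as a description, with no test. Sweet orange (Citrus sinensis) cv. Cara Cara Navel sheds the tips of its spring shoots at an abscission zone, a process called self-pruning. RNA came from shoot tips with that zone, labelled as shoot meristems, collected 3 days ahead of the shedding (stage 1), at its onset (stage 2) and 7 days past it (stage 3). The trees were adult, untreated and grown in the field. Each stage had 2 arrays, which the labels call biological replicates, and the methods state that shoots came from groups of trees, without tying a group to an array. They also describe necrosis around the zone at stage 3.

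Bioactive GAs promote growth and cell elongation in shoots. Plants make them from ent-kaurene, which is formed by the copalyl diphosphate and ent-kaurene synthases and oxidised by ent-kaurene oxidase and ent-kaurenoic acid oxidase, before soluble dioxygenases complete the active hormone. GA 2-oxidases hydroxylate GAs and so inactivate them. The receptor GID1 binds active GA and then holds DELLA proteins, the repressors of GA responses, which are marked for destruction through the F-box protein GID2. GASA, GAST and snakin genes encode small cysteine-rich peptides, several of which were first found through their response to GA.

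At stage 3 the pair of GA 2-oxidase probe sets was 5.43-fold and 5.91-fold higher than at stage 1, while at stage 2 neither stood apart from stage 1. The GID1B-like receptor was lowest at stage 2, 5.36-fold below stage 1, and at stage 3 it lay between the other stages. The response probe sets went in opposite directions: 2 named gibberellin-regulated protein were 4.73-fold and 4.96-fold lower at stage 3 than at stage 1, and the GASA5-like probe set was 4.02-fold higher. Measured against stage 1, 1 of the 6 had a higher mean at stage 2 and 3 of the 6 at stage 3. At stage 3 all 6 had arrays that did not overlap those of stage 1, as did 81.9% of all probe sets. At stage 2 this held for 4 of the 6 and for 70.6% of all. A change of at least 4-fold, the size the methods required, was seen in 1 of the 6 at stage 2 and 5 of the 6 at stage 3, against 0.434% and 3.41% of all probe sets with the methods' p threshold added. These counts follow from how the 6 were picked. The GASA5-like probe set, at 2.01 on the log2 scale, was the closest to that 4-fold limit of 2 on the log2 scale. Outside the study's list, the largest rise of a gibberellin-named probe set over stage 1 was 1.58 (3.0-fold, Cit.30950.1.S1_at at stage 3). The largest fall was -1.63 (Cit.18766.1.S1_at at stage 2). Both stayed short of that limit.

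**Figure D1:**
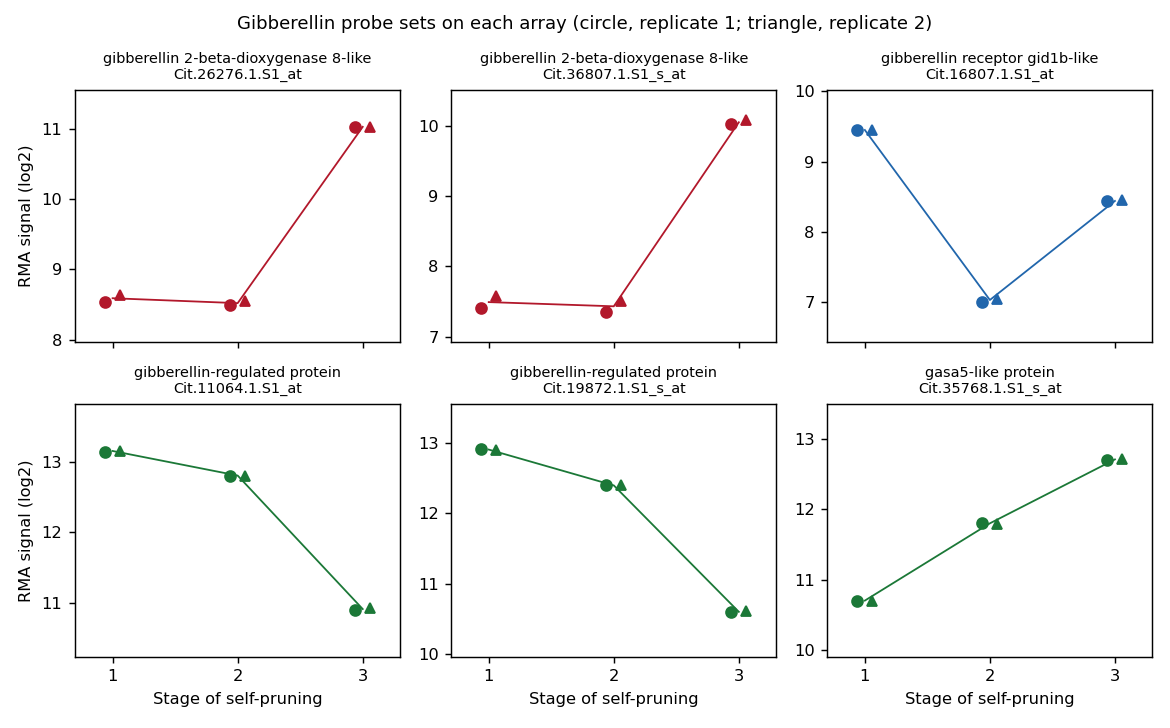
RMA signal (log2) of the 6 gibberellin probe sets at each stage of self-pruning, with circles for replicate 1, triangles for replicate 2 and a line through the stage means; each panel has its own signal range. The GA 2-oxidase pair is high at stage 3 alone, the GID1B-like receptor is lowest at stage 2, and the response probe sets run down (Cit.11064.1.S1_at, Cit.19872.1.S1_s_at) or up (Cit.35768.1.S1_s_at) through the stages.

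Both inactivation probe sets were named by homology as GA 2-oxidase (gibberellin 2-beta-dioxygenase 8-like), the type of enzyme that removes active GA or its precursors. The signal of Cit.26276.1.S1_at, on the log2 scale, was 8.53 and 8.64 at stage 1, 8.49 and 8.55 at stage 2 and 11.03 on both stage 3 arrays. Only stage 3 stood apart, since the arrays of the earlier stages overlapped. The difference from stage 1 was -0.07 ± 0.0485 (standard error of the fit, 2 arrays per stage) at stage 2 and 2.44 ± 0.0485 at stage 3. Cit.36807.1.S1_s_at read 7.41 and 7.57 at stage 1, 7.35 and 7.51 at stage 2 and 10.02 and 10.08 at stage 3. It showed the same order, with high values at stage 3 alone and overlapping arrays before. Its change was -0.06 ± 0.079 at stage 2 and 2.56 ± 0.079 at stage 3. The small stage 2 value had no settled sign: it was 0.02 without stage 1 replicate 2 and 0.02 without stage 2 replicate 1, which makes 2 of the 6 higher at stage 2. Stage 3 was above stage 2 by 2.51 ± 0.0485 and 2.62 ± 0.079. Over the 6 arrays, with each probe set set to its own stage 1 mean, the profiles of the pair differed by a root mean square (RMS) of 0.0785 on the log2 scale. Of all 30171 probe sets, 7.6% had this order of stage 3 over overlapping stages 1 and 2.

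The names of the pair need a limit beside them. The array's own shortened names read "oxidoreducta" for Cit.26276.1.S1_at and "gibberellin 2" for Cit.36807.1.S1_s_at. The study's annotation gives the former GA 2-oxidase activities, but gives the latter the activity of GA 3-oxidase, the enzyme that makes active GA, next to its GA 2-oxidase-like name. The ending _s_at marks probe sets that can match several related transcripts, so Cit.36807.1.S1_s_at may read more than 1 gene. A sister probe set on the same target, Cit.36807.1.S1_at, was chosen for mention after its values were seen. It read 3.72 and 3.51 at stage 1, 3.91 and 3.74 at stage 2 and 3.98 and 4.14 at stage 3, all within the 3.49 to 5.67 of the 60 reporter-gene control probe sets. Its change at stage 3 was 0.45 ± 0.106 (limma, adjusted p = 0.0176), and the profiles of the 2 sister sets differed by an RMS of 1.24. That call was lost without stage 1 replicate 2 or stage 3 replicate 2, with changes from 0.35 to 0.55 over the fits that left out an array.

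The receptor probe set, Cit.16807.1.S1_at, was named as GID1B-like, 1 of the soluble receptors that bind GA in the nucleus. It read 9.45 on both stage 1 arrays, 7.0 and 7.05 at stage 2 and 8.44 and 8.45 at stage 3. No array of any stage overlapped another stage, and the order was stage 1 over stage 3 over stage 2. Against stage 1 the difference was -2.42 ± 0.0292 at stage 2 and -1.01 ± 0.0292 at stage 3, the latter a level 2.01-fold lower. Between stage 2 and stage 3 the signal was higher by 1.42 ± 0.0292. This order of the stages was the least frequent among the orders of the 6, held by 2.91% of all probe sets. The array's own name for it, "putativ", carries no function, so the name of the receptor rests on the study's homology search alone.

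Of the response probe sets, Cit.11064.1.S1_at was named as a gibberellin-regulated protein, and the array calls it "Gasa4-". It read 13.15 and 13.16 at stage 1, 12.80 and 12.81 at stage 2 and 10.90 and 10.93 at stage 3. The stages did not overlap and descended in order, with the larger step after stage 2. The difference from stage 1 was -0.35 ± 0.0255 at stage 2 and -2.24 ± 0.0255 at stage 3. Cit.19872.1.S1_s_at, also named a gibberellin-regulated protein, read 12.92 and 12.90 at stage 1, 12.40 and 12.41 at stage 2 and 10.60 and 10.61 at stage 3. Its stages descended in the same order with no overlap. Its difference from stage 1 was -0.51 ± 0.0254 at stage 2 and -2.31 ± 0.0254 at stage 3. The step from stage 2 to stage 3 was -1.89 ± 0.0255 for the former and -1.80 ± 0.0254 for the latter, and the profiles of the 2 differed by an RMS of 0.101. This descending order was seen in 16.5% of all probe sets.

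Cit.35768.1.S1_s_at, named GASA5-like by both the study and the array, belongs to the same peptide family but ran the other way. It read 10.70 and 10.69 at stage 1, 11.81 and 11.79 at stage 2 and 12.70 and 12.71 at stage 3. The stages ascended in order with no overlap, and the steps were of similar size. The difference from stage 1 was 1.1 ± 0.0251 at stage 2 and 2.01 ± 0.0251 at stage 3, with 0.91 ± 0.0251 between stage 2 and stage 3. The ascending order was seen in 12.9% of all probe sets. Against the profiles of the descending pair, that of GASA5-like differed by an RMS of 2.59 and 2.66. Against the GA 2-oxidase pair, high at stage 3 too but not at stage 2, it differed by 0.722 and 0.746.

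In the bulk shoot tip, fewer cells of a type and less RNA per cell cannot be told apart, and the tissue markers moved with the stages. Of 6 probe sets with names of meristem and young-organ genes, 4 were called lower and 1 higher at stage 3, where 35.9% and 29.9% of all probe sets were called so, and 3 of the 6 are on the study's list. The lowest was a YABBY1 probe set (Cit.15713.1.S1_at) at -4.20, and the higher one was the knotted-1-like homeobox probe set (Cit.1376.1.S1_s_at), of the KNOX class that marks meristems, at 1.81. Their summed signal was 13.16 to 13.17, 12.90 to 12.92 and 12.65 on the log2 scale at stages 1, 2 and 3. No probe set matched WUSCHEL or SHOOT MERISTEMLESS, the defining meristem genes, by name. All 5 vascular and cell wall probe sets, each of them on the study's differential list, were higher at stages 2 and 3, by 1.93 to 5.18 at stage 3, with a summed signal of 10.97 to 11.00, 11.38 to 11.41 and 14.07. The 4 leaf probe sets summed to 14.80 to 14.84, 14.94 to 14.97 and 14.87 to 14.88, a sum set almost wholly by 1 bright rubisco probe set (Cit.24030.1.S1_s_at, at 14.78 to 14.94). The others went both ways at stage 3, with a chlorophyll a/b binding protein (Cit.23474.1.S1_at) at -1.95 and another rubisco small chain (Cit.1816.1.S1_s_at) at 1.85. Signal at the actin 3' end exceeded that at the 5' end by 1.87 and 1.94 at stage 1, 1.89 and 1.93 at stage 2 and 1.62 and 1.66 at stage 3. The part of these shifts in the gibberellin values was not tested. The median gap between the 2 arrays of a stage was 0.0556 over all probe sets, and array medians lay between 7.30 and 7.39.

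Another 10 probe sets of the study's differential list had names from GA synthesis, signalling or response, and these too are described without a test. A pair named ent-kaurenoic acid oxidase, the cytochrome P450 that leads from ent-kaurenoic acid towards GA, was high at stage 3. The first, Cit.12119.1.S1_s_at, read 7.03 and 7.23 at stage 1, 8.16 and 8.23 at stage 2 and 9.36 and 9.35 at stage 3, with changes of 1.07 ± 0.0738 and 2.22 ± 0.0738. The second, Cit.13587.1.S1_at, read 7.0 and 7.10, then 6.87 and 7.08, then 9.16 and 9.22, with changes of -0.08 ± 0.0853 and 2.14 ± 0.0853. The first therefore climbed through the stages as GASA5-like did, and the second was high at stage 3 alone as the GA 2-oxidase pair was. At stage 3 these synthesis probe sets were 4.67-fold and 4.41-fold above stage 1, beside the 5.43-fold and 5.91-fold of the inactivation pair. The synthesis pair share a best database match and may read 1 gene or related ones. Cit.28418.1.S1_s_at, Cit.24010.1.S1_at and Cit.24010.1.S1_s_at, outside the study's list, have the same match. Their changes at stage 3 against stage 1 were -0.24, -0.02 and -0.39.

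Among the response genes of that list, the snakin-1 probe set Cit.11014.1.S1_s_at read 7.10 and 7.04 at stage 1, 7.69 and 7.67 at stage 2 and 9.52 and 9.48 at stage 3. It was higher by 0.61 ± 0.0341 and 2.43 ± 0.0341, in the ascending order of GASA5-like. Snakin-2, a relative of it, followed the order of the receptor instead: Cit.3665.1.S1_at read 8.16 and 8.13, then 5.31 and 5.39, then 6.84 and 6.76. Its difference from stage 1 was -2.79 ± 0.0455 at stage 2 and -1.34 ± 0.0455 at stage 3, and a second probe set on the same target, Cit.3665.1.S1_s_at, was at -2.62 ± 0.142 and -1.65 ± 0.142. The stage 2 values of both lie within the range of the reporter controls, so the size of that difference is not settled. The array calls both "GEG", the name of a gibberellin-responsive GASA-type gene of Gerbera. A MYB21-like probe set, Cit.6376.1.S1_at, differed by -2.21 ± 0.0523 at stage 2 and by -0.23 ± 0.0523 at stage 3, and the study counts it among genes of GA response. MYB21 is a transcription factor of stamen growth in Arabidopsis.

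The other 4 probe sets of that group were annotated to GA response. CIGR1-like (Cit.30545.1.S1_at), a GRAS protein named in rice for induction by chitin and GA, read 4.57 and 4.64 at stage 1, 4.79 and 5.10 at stage 2 and 6.50 and 6.78 at stage 3. It stood highest at stage 3, with a measured difference of 2.03 ± 0.142 from stage 1, whose values, like those of stage 2, lie within the range of the reporter controls. Of 3 probe sets named for AS1 (asymmetric leaves) or phantastica, a MYB repressor of meristem genes in leaf primordia, Cit.11529.1.S1_s_at differed by -1.84 ± 0.027, Cit.11530.1.S1_at by -1.87 ± 0.031 and Cit.23435.1.S1_s_at by -2.11 ± 0.0259 at stage 3. All 3 descended with the stages. Over these 10 probe sets, 3 had a higher mean at stage 2 than at stage 1 and 4 at stage 3.

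The array also held 27 probe sets with gibberellin names outside the study's differential list, and the stages were tested in these 27. At an adjusted p under 0.05 (limma, Benjamini-Hochberg over all 30171 probe sets), stage 2 differed from stage 1 in 15 of them, of which 10 rose and 5 fell, leaving 12 not called. This was 55.6% of the 27, where 41.7% of all probe sets were called, 20.2% higher and 21.5% lower. With each array centred on its median, the split over all probe sets turned from 6080 higher and 6493 lower to 7145 higher and 4626 lower, and the numbers of the 27 to 11 and 3. Without stage 1 replicate 1 or stage 1 replicate 2 only 5 of the 27 rose, and without stage 1 replicate 2, stage 2 replicate 1 or stage 2 replicate 2 only 2 fell. With replicate number as a block, 11 rose and 8 fell. Between stage 1 and stage 3, 10 rose, 9 fell and 8 were not called, or 70.4% against 65.8% of all probe sets, 29.9% higher and 35.9% lower. At stage 3 against stage 2, 11 rose and 7 fell, or 66.7% against 65.6% of all probe sets, 29.1% higher and 36.5% lower. The median change of the 27 was 0.08 at stage 2 and 0.00 at stage 3, where it was 0.01 and -0.04 over all probe sets. Since the array cuts its names short (the median length is 7 letters) and 6537 of the 30171 probe sets have none, genes of the pathway may be missing from the 27. The study's list was drawn from these same arrays, so the 27 also lack gibberellin-named probe sets with large changes. All probe sets keep such changes, so the shares and medians of the 27 have no like background. With the listed ones kept, 59.4% of 32 were called at stage 2, 75.0% at stage 3 and 71.9% at stage 3 against stage 2.

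Inactivation was represented by 3 of the 27, of which 1 was called higher and 2 lower at stage 3. Over all probe sets, 29.9% were called higher and 35.9% lower there. Cit.18766.1.S1_at, named as a GA 2-oxidase, read 6.25 on both stage 1 arrays, 4.63 and 4.61 at stage 2 and 5.31 and 5.32 at stage 3. Stage 1 stood above both later stages, whose 4 values lie within the range of the reporter controls (3.49 to 5.67), so the size of the fall and the order of stages 2 and 3 are not settled. The measured change was -1.63 ± 0.0254 at stage 2 (limma, adjusted p = 3.05e-05) and -0.94 ± 0.0254 at stage 3 (adjusted p = 1.22e-05). Cit.34351.1.S1_at, with the same name, fell by 0.24 at stage 2 (limma, adjusted p = 0.0426) and by 0.32 at stage 3 (adjusted p = 0.0101). It read 4.62 to 5.05 over the 6 arrays, within the range of the reporter controls, so the size of these falls is not settled. Its stage 2 call was lost under 9 of 13 alternatives, which included leaving out any array but stage 1 replicate 1, and its stage 3 call was lost without stage 3 replicate 1. Changes over the fits that left out an array ran from -0.30 to -0.17 at stage 2 and from -0.39 to -0.25 at stage 3. The sister set Cit.36807.1.S1_at, described above, was the third.

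Of the 7 synthesis probe sets among the 27, 2 were called higher and 2 lower at stage 2. At stage 3, 1 was called higher and 2 lower. This was 57.1% and 42.9% of the 7, where 41.7% and 65.8% of all probe sets were called. By direction, 20.2% of all probe sets were called higher and 21.5% lower at stage 2, and 29.9% and 35.9% at stage 3. Cit.26661.1.S1_at, named for ent-kaurene, the diterpene from which GAs are made, read 6.88 and 7.10 at stage 1, 6.40 and 6.44 at stage 2 and 7.66 and 7.92 at stage 3. It was lowest at stage 2 and highest at stage 3, with a fall of 0.57 ± 0.115 (limma, adjusted p = 0.0179) and a rise of 0.80 ± 0.115 (adjusted p = 0.00311). The fall was not called without stage 1 replicate 2, stage 2 replicate 1 or stage 2 replicate 2, with changes from -0.68 to -0.46 over the fits that left out an array. Changes in the others stayed under 0.5 in size in both comparisons with stage 1. Cit.21784.1.S1_at, named copalyl pyrophosphate synthase for the enzyme that opens the pathway, rose by 0.40 ± 0.109 at stage 2 (adjusted p = 0.0438), and this was lost without any 1 of the stage 1 or stage 2 arrays, at 0.32 to 0.47. The other one called higher at stage 2, Cit.24010.1.S1_at, was mentioned after its values were seen and stood at 0.19 ± 0.0381 (adjusted p = 0.0166), lost without either stage 1 array or stage 2 replicate 1, at 0.15 to 0.23. A probe set for the ent-kaurenoic acid oxidase step, Cit.28418.1.S1_s_at, fell by 0.26 ± 0.0351 at stage 2 (adjusted p = 0.00579) and by 0.24 ± 0.0351 at stage 3 (adjusted p = 0.00333). A probe set with the same kind of name, Cit.24010.1.S1_s_at, fell by 0.39 ± 0.0988 at stage 3 (limma, adjusted p = 0.0215). That call was lost without stage 1 replicate 1, stage 1 replicate 2 or stage 3 replicate 1, at -0.47 to -0.32. All values of Cit.21784.1.S1_at (4.90 to 5.41) and Cit.24010.1.S1_s_at (4.58 to 5.44) lie within the range of the reporter controls, 3.49 to 5.67. So do the stage 1 and stage 3 values of Cit.24010.1.S1_at, and the size of these changes is not settled.

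**Figure D2:**
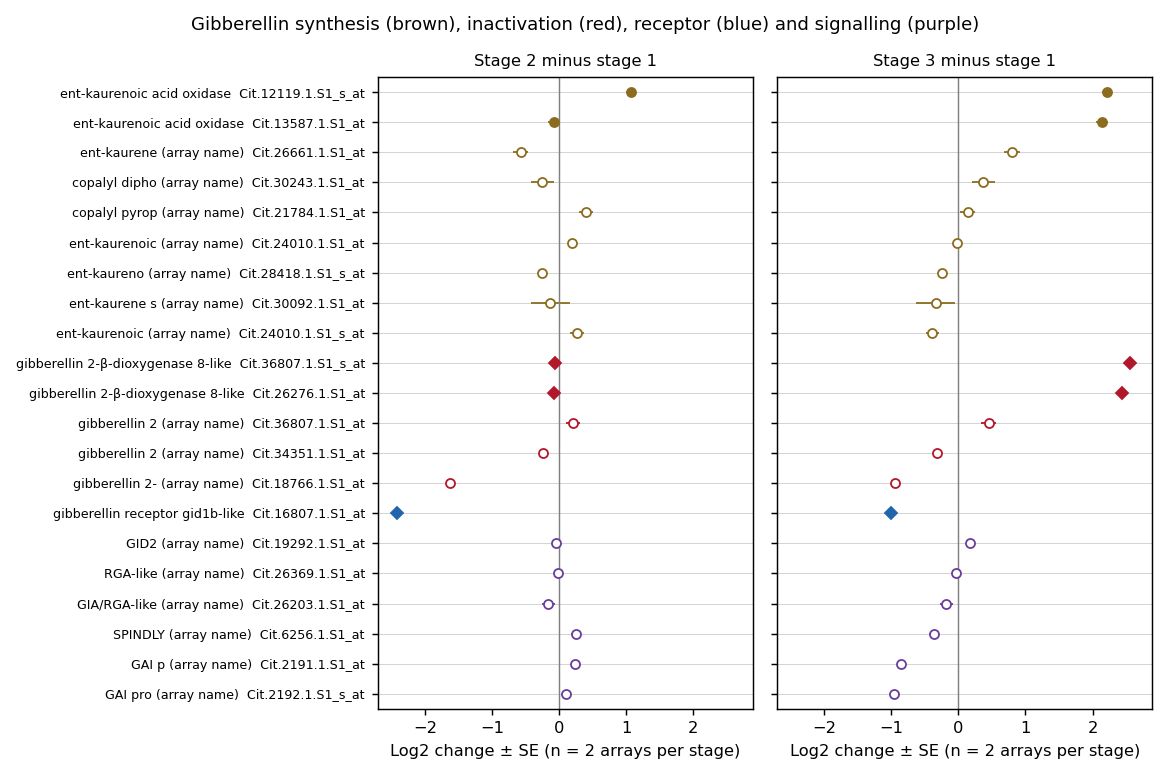
Log2 change from stage 1 to stage 2 (left) and to stage 3 (right) of probe sets named for GA synthesis (brown), inactivation (red), the receptor (blue) and signalling (purple), with horizontal bars for the standard error (2 arrays per stage). Filled diamonds are the GA 2-oxidase pair and the receptor of the 6-gene set, filled circles the study's other differential genes and open circles the probe sets outside that list. At stage 3 the GA 2-oxidase pair, on the study's 4-fold list, reads 2.44 and 2.56. The other inactivation probe sets, left off that list, lie between -0.94 and 0.45, so the gap follows in part from that choice. Of these, Cit.34351.1.S1_at and Cit.36807.1.S1_at lie within the range of the reporter controls on every array.

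Signalling had 6 of the 27, of which 2 were called higher and none lower at stage 2. At stage 3, 1 was called higher and 3 lower. This was 33.3% and 66.7% of the 6, where 41.7% and 65.8% of all probe sets were called. By direction, 20.2% of all probe sets were called higher and 21.5% lower at stage 2, and 29.9% and 35.9% at stage 3. By limma at an adjusted p under 0.05, the 2 probe sets named GAI, a DELLA repressor, both fell at stage 3. Cit.2191.1.S1_at read 9.69 on both stage 1 arrays, 9.88 and 9.98 at stage 2 and 8.82 and 8.83 at stage 3. Stage 3 was lowest with no overlap, at -0.86 ± 0.0416 from stage 1 (adjusted p = 6.25e-05). Cit.2192.1.S1_s_at read 8.48 and 8.51, then 8.66 and 8.56, then 7.47 and 7.60, at -0.96 ± 0.0591 (adjusted p = 0.000143). The 2 share a best database match and may read 1 gene. SPINDLY, a sugar transferase that acts on GA signalling in Arabidopsis, fell by 0.37 ± 0.0639 at stage 3 (Cit.6256.1.S1_at, adjusted p = 0.00593). At stage 2 SPINDLY had risen by 0.25 ± 0.0639 (adjusted p = 0.0378) and the first GAI probe set by 0.24 ± 0.0416 (adjusted p = 0.0113). Both calls were lost without either stage 1 array, and that of SPINDLY also without either stage 2 array, at 0.21 to 0.28 for SPINDLY and 0.19 to 0.29 for GAI. The probe sets named RGA-like (Cit.26369.1.S1_at) and GIA/RGA-like (Cit.26203.1.S1_at), also of the DELLA type, did not pass in either comparison. They and the GID2 probe set (Cit.19292.1.S1_at), the 1 called higher at stage 3, were chosen for mention after their values were seen. GID2 was at 0.17 ± 0.0515 (adjusted p = 0.0376), a call lost without any 1 array except stage 1 replicate 2, at 0.12 to 0.23. The RGA-like and GIA/RGA-like changes at stage 3 were -0.03 ± 0.0587 (adjusted p = 0.657) and -0.18 ± 0.0974 (adjusted p = 0.179). Members of a family that passed and that did not pass were not tested against each other.

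The response group was the most populated, with 11 of the 27, of which 7 carry only a name such as gibberellin-regulated or gibberellin-induced. For stage 2 the test called 6 higher and 1 lower, and for stage 3 it called 7 higher and 2 lower, beside 20.2% and 21.5% of all probe sets at stage 2 and 29.9% and 35.9% at stage 3. The median change of the group was 0.15 at stage 2 and 0.83 at stage 3, beside 0.01 and -0.04 over all probe sets. The family's members on the study's list, which went both ways, are left out of these counts and medians. Of these 11, 3 (Cit.14748.1.S1_at, Cit.30950.1.S1_at and Cit.30950.1.S1_s_at) share a best database match and may read 1 gene. Cit.30950.1.S1_at, called gibberellin-induced, read 9.01 and 9.05 at stage 1, 9.28 and 9.23 at stage 2 and 10.62 and 10.61 at stage 3, a rise of 1.58 ± 0.0326 (limma, adjusted p = 6.37e-06). The other 2 of the 3 rose by 1.17 ± 0.0352 (adjusted p = 1.57e-05) and 1.44 ± 0.0338 (adjusted p = 8.62e-06). Their rises came mainly after stage 2, where they had reached 0.15 to 0.23, the lowest of these (Cit.30950.1.S1_s_at, adjusted p = 0.024) not called without stage 1 replicate 1, stage 1 replicate 2, stage 2 replicate 1 or either stage 3 array, at 0.12 to 0.19.

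Other response probe sets of the 27 had begun to rise at stage 2. Cit.29007.1.S1_at, with a gibberellin name, read 6.21 and 6.18 at stage 1, 6.88 and 7.14 at stage 2 and 7.66 and 7.74 at stage 3, a rise of 0.82 ± 0.0949 (limma, adjusted p = 0.00355) and then 1.5 ± 0.0949 (adjusted p = 0.000156) over stage 1. Cit.18244.1.S1_at, with a gibberellin name too, read 11.08 and 11.07, then 11.78 and 11.79, then 11.90 on both, so that nearly all of its rise of 0.83 ± 0.0244 (adjusted p = 1.51e-05) was present at stage 2, at 0.71 ± 0.0244 (adjusted p = 0.000181). The snakin probe set Cit.9890.1.S1_s_at, for an antimicrobial peptide of the GASA family, rose by 0.39 ± 0.0248 (adjusted p = 0.000752) and 1.12 ± 0.0248 (adjusted p = 7.48e-06). All 3 ascended in the order of GASA5-like, though the step of Cit.18244.1.S1_at from stage 2 to stage 3 was only 0.11 ± 0.0244 (limma, adjusted p = 0.0129). That call was lost with centring on array medians, and the fits that left out an array gave 0.11 to 0.12.

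Of those that fell, Cit.24092.1.S1_at, called gibberellin-regulated, read 6.35 and 6.37 at stage 1, 6.44 and 6.24 at stage 2 and 5.44 and 5.29 at stage 3, a fall of 1.0 ± 0.0854 (limma, adjusted p = 0.000463). Only stage 3 stood apart, with both values within the range of the reporter controls. Its best database match, with an expectation value of 1e-06, is also that of Cit.19471.1.S1_s_at, described below. These 2 may read 1 gene. GAST1, the tomato gene that gave the family its name, was represented by Cit.19396.1.S1_s_at, which was at -0.11 ± 0.0263 at stage 2 (adjusted p = 0.0307) and 0.73 ± 0.0263 at stage 3 (adjusted p = 2.67e-05), lowest at stage 2 by a small step. That stage 2 step was not called without any 1 of the stage 1 or stage 2 arrays or with centring on array medians, at -0.11 in each fit that left out an array. The second of the 2 that fell at stage 3, Cit.19471.1.S1_s_at, called gibberellin-regulated and mentioned after its values were seen, was at -0.09 ± 0.0258 (adjusted p = 0.0331). Its call was lost without any 1 of the 6 arrays, at -0.10 to -0.08, and quantile normalization turned its sign, to 0.05.

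**Figure D3:**
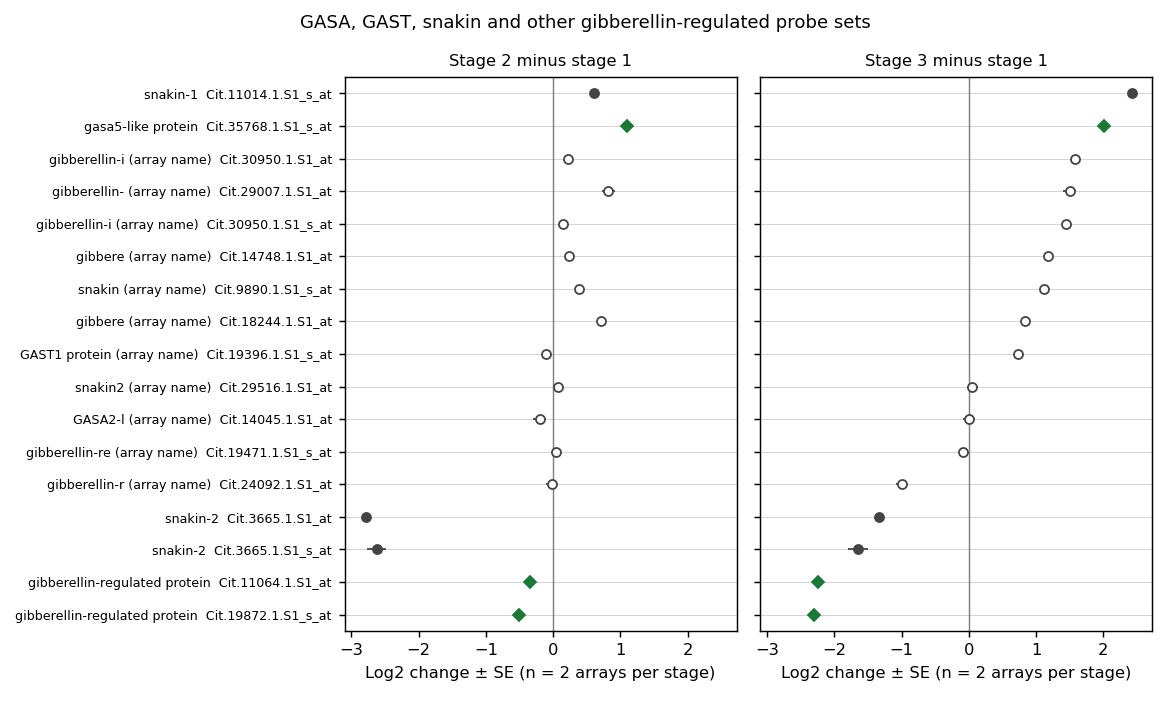
Log2 change from stage 1 to stage 2 (left) and to stage 3 (right) of GASA, GAST, snakin and other gibberellin-regulated probe sets, with bars for the standard error (2 arrays per stage). Green diamonds are the response genes of the 6-gene set, dark circles the study's other differential genes and open circles the probe sets outside that list; at stage 3 the family spreads from -2.31 to 2.43.

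For each of the 6, the probe sets of the study's differential list with the closest profile were sought among the 1084 with an informative name, by the RMS difference over the 6 arrays after subtraction of each one's stage 1 mean. For Cit.26276.1.S1_at they were a subunit of the mediator of RNA polymerase II transcription (Cit.25038.1.S1_at, RMS 0.0446) and chorismate mutase (Cit.17342.1.S1_at, RMS 0.0568). Chorismate mutase, an enzyme of aromatic amino acid synthesis, was also the closest to the other GA 2-oxidase, Cit.36807.1.S1_s_at (RMS 0.0466), ahead of a nuc-1 negative regulatory protein (Cit.34279.1.S1_at, RMS 0.0779). The receptor was closest to a 40S ribosomal protein S24-2-like probe set (Cit.3036.1.S1_s_at, RMS 0.0343) and a germin-like protein (Cit.18912.1.S1_x_at, RMS 0.0547). The mediator subunit at stages 1 and 2 (4.72 to 4.81) and the germin-like protein at stage 2 (4.46 and 4.62) lie within the range of the reporter controls. The likeness of these 2 is therefore not settled.

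For the descending Cit.11064.1.S1_at, the closest were a vacuolar protein sorting VPS2-like probe set (Cit.22732.1.S1_s_at, RMS 0.0289) and an IQ-domain 18 protein (Cit.24938.1.S1_at, RMS 0.0301). For Cit.19872.1.S1_s_at they were a microtubule-associated protein (Cit.5026.1.S1_at, RMS 0.0393) and an OB-fold protein (Cit.40006.1.S1_at, RMS 0.0398). GASA5-like was closest to a 3-beta-hydroxysteroid isomerase-like probe set (Cit.12369.1.S1_s_at, RMS 0.0704) and a beta-glucosidase (Cit.11898.1.S1_at, RMS 0.0762). Both stage 3 values of the IQ-domain protein and both stage 1 values of the isomerase-like probe set lie within the range of the reporter controls. Their likeness is therefore not settled either. Of the 30171 probe sets, those with a profile within an RMS of 0.25 numbered 120 and 99 for the GA 2-oxidase pair in the order above, 185 and 147 for the descending pair and 91 for GASA5-like and 18 for the receptor.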

How the data were processed

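Total RNA of 6 shoot tip samples, 3 stages with 2 arrays each, was hybridized to the Affymetrix Citrus GeneChip. The authors deposited log2 signals per probe set, made with robust multi-array averaging (RMA) in Expression Console 1.1 per the methods, which also name MAS 5.0, and a table of stage means on the same log2 scale. RMA pulls extreme probes together and scales arrays to a common distribution, so a shift shared by most genes would be lost. Ratio and p-value columns of the authors' own comparisons were not used. The stage means were checked against the arrays and differed from the array means by at most 7e-05. Values were kept as deposited.

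The 224 control probe sets were left out, and 30171 of 30395 entered 1 linear model over all 6 arrays with moderated variances (lmFit, contrasts and eBayes of limma 3.58.1 under R 4.3.3; p-values adjusted by Benjamini-Hochberg, threshold 0.05). The fit was tested on simulated data with 200 planted changes. Changes are given with the standard error of this fit. The number of arrays limits the precision, and p-values measure only the spread between the 2 samples of a stage. SAM, named in the methods, was not run because 2 arrays a stage give too few relabellings.

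The 6 gibberellin probe sets and the gene lists were chosen with earlier results of these data known. Gene names came from the study's homology annotation and, outside its 1378 differential genes, from the array's shortened names (23634 of 30171 have one). The names given in the text are the 6, the study's other gibberellin genes, the gibberellin genes by array name with the 5 largest called changes in each direction at stage 2 and at stage 3, and for each of the 6 the 2 probe sets with the closest profile. Alternatives covered scaling, filters on dim probe sets, controls, moderation, a replicate block, the arrays in the fit, the methods' threshold and leaving out each array. Probe sequences were not used here.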

Additional observations from a re-analysis of the deposited data

How the results depend on the processing

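Of 162 values of the 6 gibberellin probe sets under alternatives, 127 moved by less than 1 SD between replicates, 35 moved by more and 0 turned the sign of a change larger than that SD. Over the 6, the number higher at stage 2 was 1 to 2 when 1 array was left out. Of 1221 values for the 27 gibberellin-named probe sets, 1077 kept their direction and side of the threshold, 129 lost the call, 13 gained it and 2 turned, both for Cit.19471.1.S1_s_at under quantile normalization (0.048 at stage 3 against stage 1 and 0.012 against stage 2). The cause was not tested.

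For the 27, calls at stage 2 ranged from 5 to 9 higher and 2 to 4 lower when 1 array was left out. The number lower there was 3 with arrays centred on the median, 2 with a mean signal above the median of all probe sets, 3 with a mean of at least 6 and 3 without moderation. With a mean above the median, where fewer probe sets are tested, 5 were lower at stage 3 against stage 1, and 7 were higher and 4 lower at stage 3 against stage 2. The methods' threshold of 4-fold and p of at most 0.001 called 0 of the 27 in any comparison. Against stage 1 this follows from the choice of the 27, which lie outside the list made at that threshold. By limma at an unadjusted p under 0.05 the number was 16 at stage 2, 19 at stage 3 and 18 between stages 2 and 3.

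Over all probe sets, the methods' threshold called 22 higher and 109 lower at stage 2, 653 and 376 at stage 3, and 565 and 286 between stages 2 and 3. Without 1 array, 4160 to 5882 were lower at stage 2. A mean signal above the median left 5905 higher at stage 3.

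The replicate number was tried as a block, since replicates 2 and 1 differed alike in the 3 stages (r = 0.561, 0.475 and 0.463 across probe sets, which are not independent). The labels do not say that a number marks shared trees, so this is only a hint. In the block fit 8 of the 27 were lower at stage 2, 7492 of all probe sets were higher and 7613 lower at stage 2, 9930 and 11890 at stage 3, and 9559 and 12222 between stages 2 and 3. Signals of 17 of the 27 averaged at least 6. Reporter controls reached 5.67 and the 23 random-sequence controls 7.07 to 10.49, so no single floor for dim probe sets could be set.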
